A study of Homo sapiens with 6 samples.

Results

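The integrated stress response is the program by which cells slow protein synthesis and turn on a set of repair genes when they run short of amino acids or heme, when proteins fail to fold, or when mitochondria are disturbed. Its kinases phosphorylate the initiation factor eIF2α, most translation falls, and the mRNA of the transcription factor ATF4 is translated more because of small upstream reading frames, so that much of the control of ATF4 lies outside its mRNA level. ATF4 binds DNA as a dimer with C/EBP family partners and activates genes for amino acid synthesis, amino acid uptake, tRNA charging and the later factor DDIT3, also called CHOP. In tumour cells the branch is known for supporting growth under nutrient shortage and for cell death when stress persists.

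The 10 genes of the ATF4 branch examined here were ATF4 and 9 genes known as its targets, DDIT3, TRIB3, CHAC1, ASNS, PCK2, CTH, SESN2, VLDLR and DDIT4. They were chosen by symbol, with earlier results of these data known. Each was found among the 23228 gene names of the deposited table. All 10 also passed the filter on low values, a mean of at least 10 normalized counts over the 6 libraries, which left 13255 genes for testing.

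The RNA came from SaOS-2 cells, a human osteosarcoma line without functional RB, which had been engineered to make the CDK inhibitor p21 from a doxycycline-inducible vector. Every library came from these engineered cells. The 3 p21 OFF libraries were from untreated cells, and the 3 p21 ON libraries were from cells given 1 μg/ml doxycycline for 24 h. The libraries held 12795490 to 21975045 reads on genes, and a normalized count is a read count divided by a factor for the depth of its library. The comparison addressed what changes when p21 is induced in cells that lack RB, and cells without the vector that had received the drug were not analysed here, so effects of p21 and of the drug, a tetracycline that also inhibits mitochondrial translation, cannot be told apart. The study calls its RNA-seq replicates biological, and the sources used here do not say how the 3 libraries of a group were kept apart, so the p-values measure the spread between these libraries. The p21 OFF library of replicate 1 stood somewhat apart from the other 2 of its group, with a chi-square per gene of 8.50 and 9.26 against them, where all other pairs of replicates gave 2.71 to 3.98. Without it, 7 of the 10 genes were still called higher and 1 lower, where 10.4% and 12.2% of all genes tested were. In bulk RNA a change in every cell and a change in some of the cells cannot be told apart, nor can fewer cells of a kind and less RNA per cell.

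CDKN1A, which encodes p21, had 1257, 1187 and 1355 normalized counts without doxycycline and 40470.4, 43863 and 46739 with it, so the libraries matched their labels. Of the 8 osteoblast markers, ALPL (35363 to 38901), SPARC (19220 to 20306), COL1A1 (6936 to 8533), SP7 (5212 to 5874) and RUNX2 (3028 to 3746) were abundant in normalized counts, IBSP was low and fell (log2 fold change -0.38, adjusted p = 0.0264, a call lost under 8 of 17 alternatives, among them DESeq2 and p21 OFF replicate 1 or any p21 ON replicate left out), COL1A2 was at 4.87 or less and BGLAP was at 0 in every library. Among 8 markers of other cell types, EPCAM was the most abundant, at 291.7 to 374 normalized counts, PECAM1 lay at 8.87 to 16.3, PTPRC at 3.66 to 10.5, and CD3E, CDH5, CDH1, ALB and INS at 3.91 or less. EPCAM and PECAM1 did not pass the test used for all genes (adjusted p = 0.62 and 0.823).

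Of the 10 ATF4 branch genes, 7 rose in p21 ON cells (DDIT3, TRIB3, CHAC1, ASNS, PCK2, CTH and VLDLR), 1 fell (ATF4 itself) and 2 did not pass the test (SESN2 and DDIT4). The test was limma on log2(normalized count + 1) with Benjamini-Hochberg adjustment over all 13255 genes, and a gene was called at an adjusted p under 0.05. Of all genes tested, 10.5% were called higher and 12.7% lower. The 10 genes were chosen with earlier results of these data known, which limits what this contrast can mean. The changes were modest, from 1.19-fold to 1.51-fold for the 7 genes that rose, and the median log2 fold change of the 10 was 0.38 where the median of all genes tested was 0.01. In 8 of the 10 genes the lowest p21 ON library exceeded the highest p21 OFF library, in ATF4 all p21 ON libraries were below all p21 OFF libraries, and in DDIT4 the groups overlapped. Over all genes tested, 19.1% separated upward and 21.3% downward in this way, 40.4% in all. On the recovered reads, edgeR called 7 of the 10 higher and 1 lower, where it called 10.6% and 12.4% of all genes tested, and DESeq2 called 6 higher and 1 lower, where it called 8.43% and 10.7%.

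**Figure D1:**
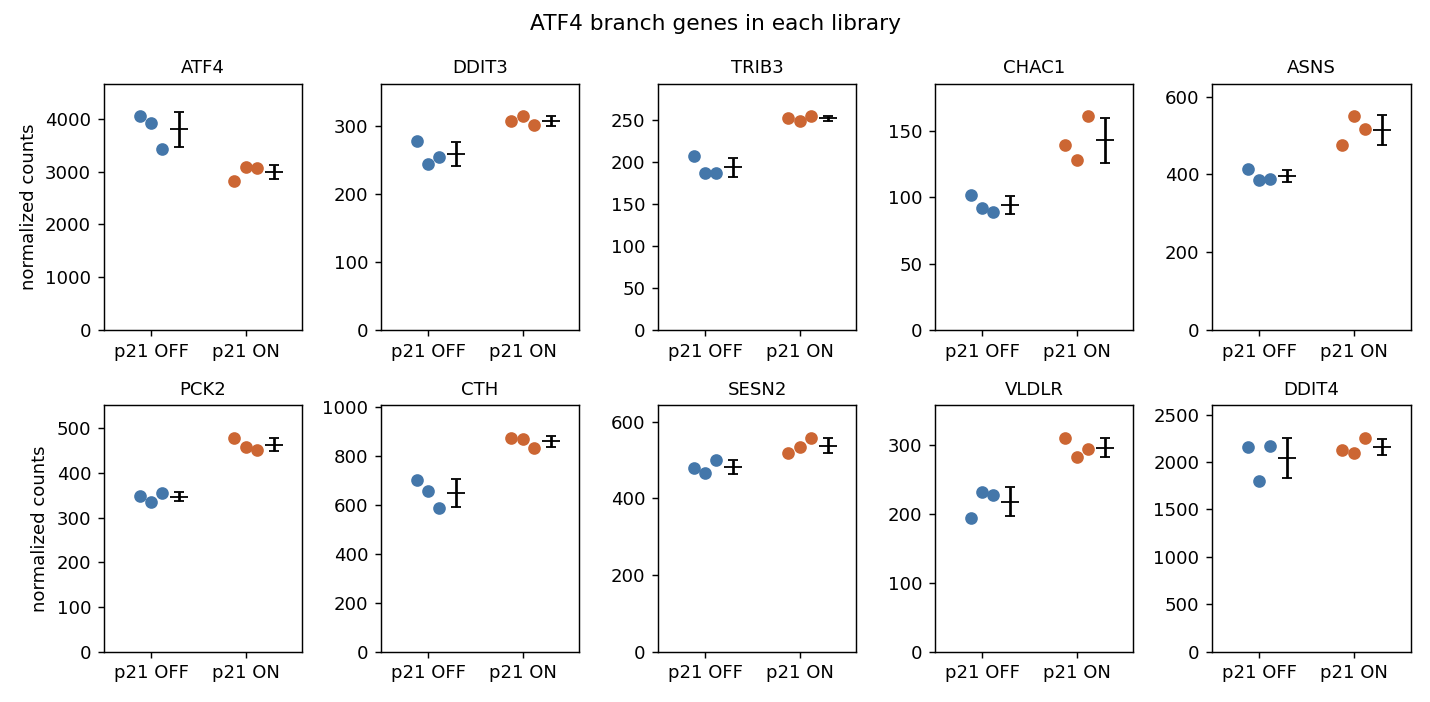
Normalized counts of the 10 ATF4 branch genes (vertical axes, each starting at 0) in the 3 p21 OFF and 3 p21 ON libraries, 1 point per library, with the mean and SD of each group drawn beside the points. The p21 ON points lie below the p21 OFF points for ATF4, above them for 8 genes, and among them for DDIT4.

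Genes of this branch are known for a composite DNA element, bound by ATF4 with a C/EBP partner, whose letters were searched here as TGATGNAA on both strands in the GRCh37 genome, 1000 bases either side of the annotated start of each gene's main transcript. At least 1 match was present in 8 of the 10 genes, all but ATF4 and CTH, where 16.3% of the 12674 tested genes with a located start held a match. The 9 genes other than ATF4 are known as ATF4 targets, so this share is a description of how they were chosen as much as of their sequence. The match nearest the start is printed below for each of the 8, on the strand of the gene from 5′ to 3′, because it is the feature the genes share by sequence. Capitals mark the 8 letters, read as TGATGNAA or as its reverse complement TTNCATCA.
DDIT3, chr12:57914585-57914614, minus strand, -306 from the start: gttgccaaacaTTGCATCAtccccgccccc
TRIB3, chr20:361525-361554, plus strand, 132 from the start: ttagctccggtTTGCATCAcccggaccggg
CHAC1, chr15:41245449-41245478, plus strand, -209 from the start: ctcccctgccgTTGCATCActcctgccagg
ASNS, chr7:97501770-97501799, minus strand, -68 from the start: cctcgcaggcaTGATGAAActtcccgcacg
PCK2, chr14:24563234-24563263, plus strand, -275 from the start: agtcctcaaagTTACATCAtgtgcggctgg
SESN2, chr1:28585722-28585751, plus strand, -296 from the start: gtgaagtccctTTTCATCAcgcaaccctaa
VLDLR, chr9:2621338-2621367, plus strand, -438 from the start: agcaacgatagTTGCATCAgcgctaactgc
DDIT4, chr10:74032725-74032754, plus strand, -942 from the start: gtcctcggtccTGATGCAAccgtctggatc

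Negative distances are upstream of the start of the main transcript. The printed matches of DDIT3, CHAC1, ASNS and VLDLR still lie within the full annotated span of the gene. TRIB3 held the same 30 bases 3 times, at 132, 165 and 198, spaced 33 bases apart within an annotated exon. DDIT3 held 2 more matches in an intron at 819 and 875, SESN2 held 1 more in an intron at 552, and ASNS held 1 more upstream at -886. Of the matches printed, those of 5 genes read TGATGCAA on 1 of the strands (DDIT3, TRIB3, CHAC1, VLDLR and DDIT4), while ASNS and SESN2 read TGATGAAA and PCK2 read TGATGTAA. A match of these letters is not evidence of binding. In this wide window, 9.75% of the 2061 tested genes with a match were called higher, and 10.8% of the 10613 without one. In the narrower RefSeq promoters described further on, 16.7% of 287 tested genes with a match were called higher, and 10.2% of 9990 without one. Whether a match goes with a change was not tested.

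**Figure D2:**
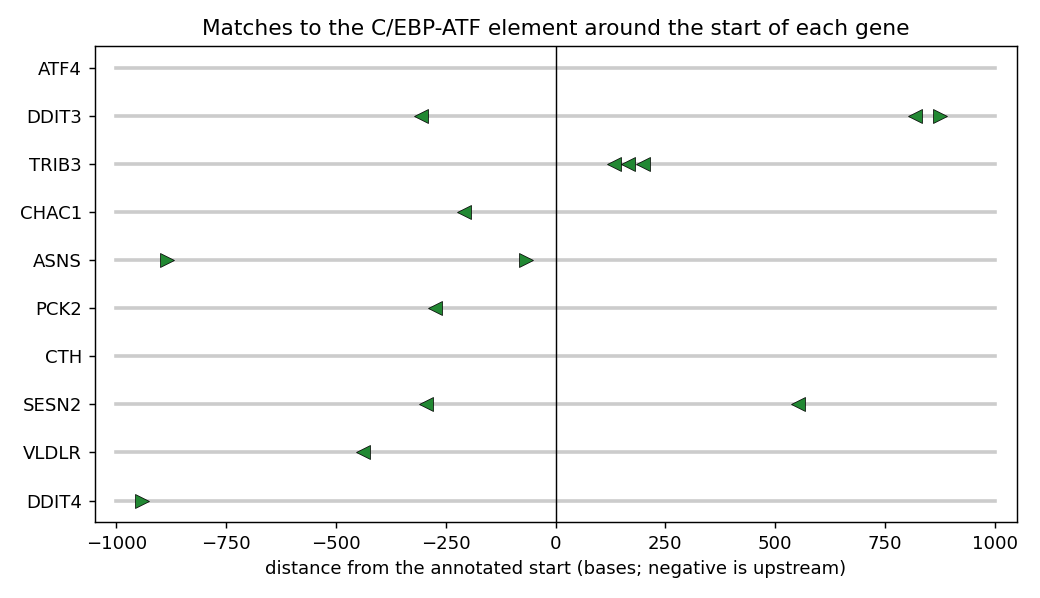
Positions of TGATGNAA matches (triangles, pointing right for the strand of the gene and left for the opposite strand) for the 10 genes. Distances are in bases from the annotated start of each gene's main transcript, with upstream negative. Matches lie between -942 and 875, and ATF4 and CTH have none in the window.

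ATF4 lies on chromosome 22 from 39915700 to 39918688 (GRCh37, plus strand). The p21 OFF libraries held 4059, 3917 and 3429 normalized counts of ATF4 and the p21 ON libraries 2830.0, 3088 and 3062, so that the lowest p21 OFF library was above the highest p21 ON library. The mean fell from 3802 ± 331 to 2993 ± 142 (SD, n = 3), a log2 fold change of -0.34 (SE 0.07, 95% interval -0.49 to -0.20, adjusted p = 0.00171), or 0.789 of the p21 OFF level on the log2(value + 1) scale. ATF4 was the only one of the 10 genes with a fitted change below 0, and 2431 to 5015 reads per library lay behind its values. The 4 pseudogenes of ATF4 (ATF4P1 to ATF4P4) are annotated on GRCh37 and have no row of that name in the table, so whether reads were shared with them is uncertain. Protein levels were not measured in these files.

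Each target was also set against ATF4 within the same library, since a ratio inside a library does not depend on its scaling. The log2 ratios of all 9 targets to ATF4 were higher in the 3 p21 ON libraries than in the 3 p21 OFF libraries, by 0.43 (DDIT4) to 0.94 (CHAC1) between group means. The fall of ATF4 enters every such ratio, and 64.6% of all other genes tested separated upward in the same way and 2.39% downward, so nothing about the 9 is read from this count.

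DDIT3 encodes CHOP, a transcription factor downstream of ATF4 that is tied to cell death under lasting stress. It lies on chromosome 12 from 57910371 to 57915520 on the minus strand. The p21 OFF libraries held 278, 244 and 254 normalized counts and the p21 ON libraries 306, 314 and 300.3, with no overlap. The log2 fold change was 0.25 (SE 0.09, 95% interval 0.06 to 0.44), and its adjusted p of 0.0494 was the closest of the 7 to the threshold. Leaving out p21 OFF replicate 2 or 3, or p21 ON replicate 1, 2 or 3, ended the call (adjusted p between 0.093 and 0.164), and DESeq2 on the recovered reads gave 0.26 with an adjusted p of 0.0898. The replicate number as a block also ended the call (adjusted p = 0.0767). With a trend with exonic length removed, the log2 fold change was 0.40 (adjusted p = 0.00168). Exons of DDIT3 overlap exons of an unnamed gene on the same strand and of MARS1 and MBD6 on the opposite strand, and the strand setting of the counting is not given in the sources used here. MARS1, a methionyl-tRNA synthetase, held 4765 to 5060.1 normalized counts over the 6 libraries with a log2 fold change of 0.02 (adjusted p = 0.822).

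TRIB3 encodes a pseudokinase that binds AKT and also ATF4 and CHOP, damping their activity. The gene spans chromosome 20 from 343479 to 378203. Its normalized counts were 207, 187 and 188 in p21 OFF and 252.6, 249.8 and 255.6 in p21 ON libraries. The p21 ON values were tightly grouped (SD 2.92) and all lay above the highest p21 OFF value. The log2 fold change was 0.38 (SE 0.09, adjusted p = 0.00751).

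CHAC1, which encodes an enzyme that breaks down glutathione, had the largest fitted change of the 10. It lies on chromosome 15 from 41245160 to 41248710 and was the least counted of the 10, with 81 to 170 reads per library. Its normalized counts were 102, 92.2 and 88.7 in p21 OFF and 139.7, 128 and 162 in p21 ON libraries. The p21 ON libraries were spread over a wider range than the p21 OFF libraries, and the groups did not overlap. CHAC1 rose by a log2 fold change of 0.59 (SE 0.13, 95% interval 0.33 to 0.86, adjusted p = 0.00284), and 3.28% of all tested genes had a change at least as high.

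The remaining enzyme genes of the 10 are ASNS, PCK2 and CTH. ASNS makes asparagine from aspartate and lies on chromosome 7 from 97480989 to 97501854. Its normalized counts were 413, 387 and 388 in p21 OFF and 475, 551 and 517 in p21 ON libraries, with a log2 fold change of 0.37 (SE 0.08, adjusted p = 0.00319). The 5 annotated ASNS pseudogenes have no row of their own, and an unnamed gene shares exons with ASNS on the same strand, so shared reads are uncertain here too. PCK2, the mitochondrial enzyme that makes phosphoenolpyruvate from oxaloacetate, on chromosome 14 from 24563262 to 24579807, held 348, 336 and 356 normalized counts in p21 OFF and 479.6, 458 and 452 in p21 ON libraries. CTH makes cysteine from cystathionine and lies on chromosome 1 from 70876901 to 70905534. Normalized counts of CTH were 701, 658 and 588 in p21 OFF and 877, 872 and 834 in p21 ON libraries. For all 3 enzymes every p21 ON library was above every p21 OFF library, and the log2 fold changes of PCK2 (0.42, SE 0.08, adjusted p = 0.00101) and CTH (0.41, SE 0.08, adjusted p = 0.000863) were close to that of ASNS. CTH is also the target of these with no match to the element in its window.

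SESN2 and DDIT4 both restrain the growth kinase complex mTORC1, SESN2 as a leucine-binding inhibitor and DDIT4, also called REDD1, through the TSC complex. These were the 2 genes of the 10 that did not pass the test. SESN2, on chromosome 1 from 28586029 to 28609002, held 479.7, 466 and 501 normalized counts in p21 OFF and 519, 534 and 559 in p21 ON libraries. Every p21 ON library of SESN2 was above every p21 OFF library, with a log2 fold change of 0.16 (95% interval -0.0009 to 0.31, adjusted p = 0.138). DDIT4, on chromosome 10 from 74033678 to 74035794, held 2160.1, 1794 and 2165 normalized counts in p21 OFF and 2129, 2089.7 and 2258 in p21 ON libraries. The p21 OFF library of replicate 2 was the low point, and the other p21 OFF libraries lay between p21 ON libraries. Its log2 fold change was 0.09 (95% interval -0.07 to 0.24, adjusted p = 0.414), and without p21 OFF replicate 2 it was -0.0032. With a trend with exonic length removed, DDIT4 (0.20, adjusted p = 0.0292) and SESN2 (0.21, adjusted p = 0.0408) were called higher. The intervals reach changes of 0.31 and 0.24, so these 2 genes are not shown to be unchanged.

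VLDLR encodes a receptor for triglyceride-rich lipoproteins and reelin, and spans chromosome 9 from 2621182 to 2660056. Its normalized counts were 193, 232 and 228 in p21 OFF and 311, 283 and 295 in p21 ON libraries. The groups were separate, with p21 OFF replicate 1 the lowest of the 6. VLDLR rose by a log2 fold change of 0.45 (SE 0.10, adjusted p = 0.00345). VLDLR-AS1 and an unnamed gene have exons on the opposite strand there, so with the counting's strand setting not given, part of the count could belong to them.

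**Figure D3:**
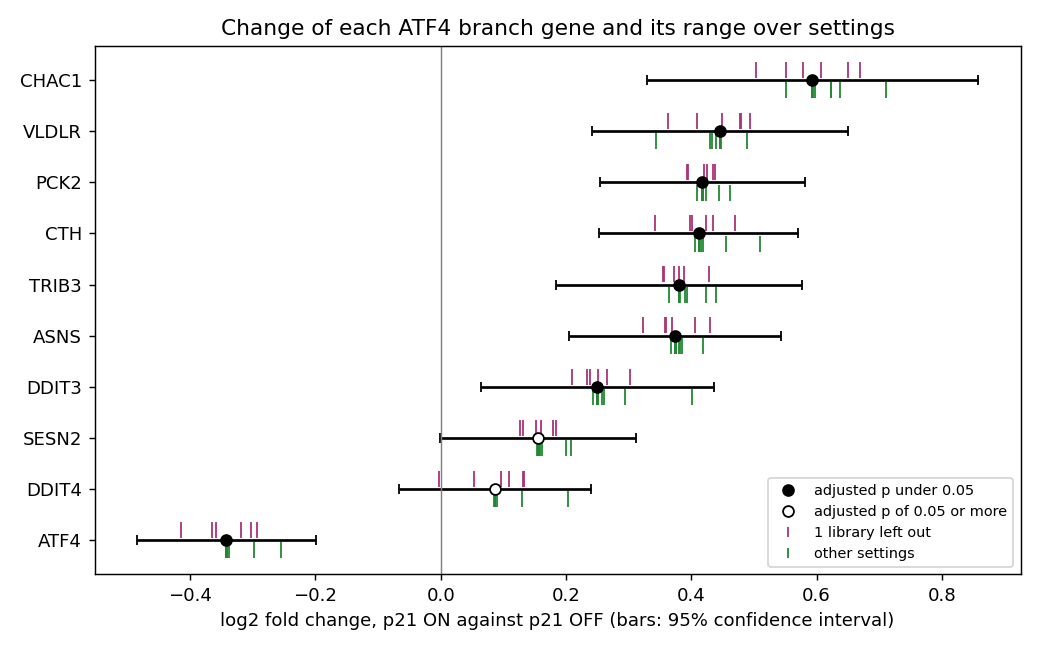
Log2 fold change of p21 ON against p21 OFF (horizontal axis) for each of the 10 genes with its 95% confidence interval, filled where the adjusted p was under 0.05, with ticks for fits with 1 library left out (above) and for other settings (below). The 7 filled points above 0 run from 0.25 to 0.59, ATF4 sits at -0.34, and the intervals of SESN2 and DDIT4 include 0.

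Levels between genes were compared as normalized counts per kb of the annotated main transcript. ATF4 was the highest of the 10 at 2679 ± 233 per kb in p21 OFF and 2109 ± 99.9 in p21 ON cells (SD, n = 3), followed by DDIT4 at 1167 ± 122 and 1235 ± 50.3. Then came CTH, DDIT3, ASNS, PCK2, SESN2, TRIB3 and CHAC1, and VLDLR was the lowest at 23.6 ± 2.30 and 32.1 ± 1.53 per kb. The order of the 10 was the same in both groups. Neighbours whose libraries overlapped were CTH and DDIT3 and also ASNS and PCK2 in p21 OFF cells, and ASNS and PCK2 and also TRIB3 and CHAC1 in p21 ON cells. DDIT4 carries no main-transcript tag in the annotation, so its longest transcript was used, and these levels depend on the annotated lengths.

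**Figure D4:**
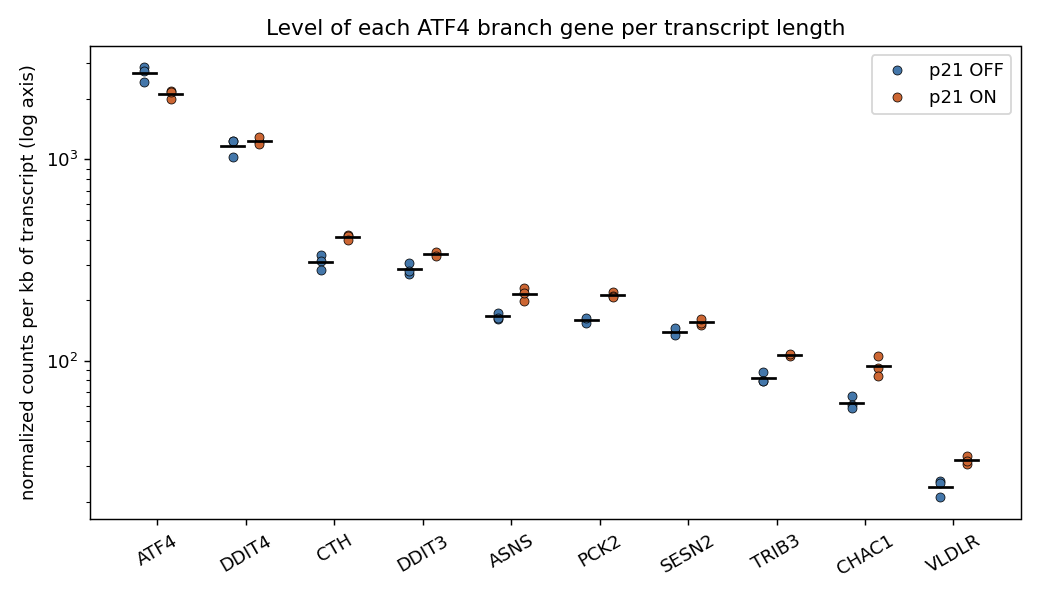
Normalized counts per kb of transcript (log axis) for the 10 genes in order of level, with 1 point per library and a bar at each group's mean. ATF4 is the highest at 2679 per kb in p21 OFF cells and VLDLR the lowest at 23.6.

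Genes whose pattern over the 6 libraries was most like that of ATF4 were sought among 10441 genes with a mean of at least 100 normalized counts, by the root mean square difference of log2 values after each gene was centred. The nearest were MRPS12, a mitochondrial ribosomal protein gene (0.03), EIF5A, a translation factor gene (0.03), and COX5A, a subunit gene of cytochrome c oxidase (0.03). MRPS12 held 502, 497 and 435 normalized counts in p21 OFF and 363, 392 and 402 in p21 ON libraries. Their log2 fold changes of -0.31, -0.29 and -0.32 follow from how they were chosen, as genes that match ATF4. Among the same genes the 9 targets ranked from 7314 (DDIT4) to 10236 (CHAC1) in likeness to ATF4.

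The further lists of genes around the same branch were 6 in number. Of their 68 genes, 65 were tested, and 9 were called higher, 7 lower and 49 neither. That is 24.6% called in either direction, where 23.2% of all genes tested were called, and their median log2 fold change was 0.01. The 7 lower calls fell to 3 under DESeq2, 2 with the replicate block, 1 under library size scaling, where 12 were called higher, and to between 0 and 5 with 1 library left out. Of all genes tested, DESeq2 called 10.7% lower and the replicate block 11.4%. Library size scaling called 9.01% of all genes lower and 15.3% higher. With 1 library left out, 6.69% to 12.5% of all genes were called lower. Omitting replicate 1, 2 or 3 of p21 ON left 0, 3 and 1 lower calls, and omitting replicate 2 or 3 of p21 OFF left 1 and 4.

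Of 17 genes for the eIF2α kinases, eIF2, its exchange factor eIF2B, the eIF2α phosphatase subunits and the mitochondrial relay, 1 was called higher and 1 lower, or 11.8% where 23.2% of all genes tested were called. EIF2AK2, the kinase PKR that senses double-stranded RNA, rose by 0.21 on the log2 scale (adjusted p = 0.0314), and EIF2B2, an eIF2B subunit, fell by 0.22 (adjusted p = 0.0377). The log2 fold changes of the other 3 kinases were -0.02 for EIF2AK1 (the heme-regulated kinase), -0.07 for EIF2AK3 (PERK) and -0.04 for EIF2AK4 (GCN2), with adjusted p-values of 0.45 or more. The EIF2AK2 call was lost under 6 of 17 alternatives, among them the replicate block, and with replicate 2 of p21 OFF or replicate 1 or 2 of p21 ON left out. The EIF2B2 call was lost under 9, among them DESeq2, library size scaling, the replicate block and each left-out library but p21 OFF replicate 3. PPP1R15A, the stress-inducible phosphatase subunit GADD34, did not pass either (log2 fold change 0.05, adjusted p = 0.623).

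Among 6 bZIP or partner factors, ATF3 rose and CEBPB fell, or 33.3% called beside 23.2% of all genes tested. ATF3, itself induced in many stress responses, held 285, 307 and 271 normalized counts in p21 OFF and 334, 397 and 422 in p21 ON libraries, a separation without overlap and a log2 fold change of 0.41 (SE 0.10, adjusted p = 0.00551). CEBPB fell by 0.24 (adjusted p = 0.0305), a call lost under 6 of 17 alternatives, among them library size scaling and the fits that omit replicate 3 of p21 OFF or replicate 1 or 2 of p21 ON. NUPR1, a small stress-induced chromatin protein gene, was low, at 28.9, 32.8 and 25.9 normalized counts in p21 OFF and 36.1, 57.3 and 40.9 in p21 ON libraries, and did not pass the test (log2 fold change 0.58, adjusted p = 0.0563). Under library size scaling, with the replicate block and without p21 OFF replicate 1, 2 of the 6 factors were called higher. Of all genes tested, 15.3%, 10.6% and 10.4% were called higher under these settings.

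Of 10 amino acid enzyme genes, 2 were called higher and 0 lower, or 20% beside 23.2% of all genes tested. At an unadjusted p under 0.05, 0 of the 10 had a negative change by limma. The share of all genes at that level was not counted, so nothing is read from this. By edgeR and DESeq2 0 of the 10 were called lower, where 12.4% and 10.7% of all genes tested were. CBS makes cystathionine, the substrate of CTH, from homocysteine and serine. Its normalized counts were 2690.1, 2557 and 2552 in p21 OFF and 3563, 3446 and 3505 in p21 ON libraries, which did not overlap, and it rose by 0.43 on the log2 scale (SE 0.06, adjusted p = 2.96e-05). An annotated copy without a name shares its exons, so its reads are uncertain. GPT2, the mitochondrial alanine transaminase, rose by 0.25 (adjusted p = 0.0116), a call lost without p21 ON replicate 1 or 3. Of the serine pathway genes, PHGDH (0.06), PSAT1 (0.11) and PSPH (-0.09) did not pass the test, and ALDH1L2, a mitochondrial folate enzyme at 18.8 to 41.9 normalized counts, had a log2 fold change of 0.64 with an adjusted p of 0.0592. Under library size scaling, with the replicate block and without p21 OFF replicate 3, 3 of the 10 enzyme genes were called higher. The shares of all genes called higher in these fits were 15.3%, 10.6% and 11.2%.

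The lowest adjusted p of the 6 lists belonged to an amino acid transporter. SLC1A4, a carrier of alanine, serine and cysteine, held 814, 862 and 839.7 normalized counts in p21 OFF and 1324, 1382 and 1330.3 in p21 ON libraries. No library of one group came near the other, and the log2 fold change was 0.68 (SE 0.06, adjusted p = 2.84e-07). SLC1A5, a glutamine carrier, and SLC7A11, the cystine-glutamate exchanger, rose by 0.20 and 0.22 (adjusted p = 0.0353 and 0.0486), and SLC38A2, the adaptive neutral amino acid transporter SNAT2, fell by 0.21 (adjusted p = 0.0163). SLC1A4 kept its call under all 17 alternatives. The SLC7A11 call was lost under 10, among them edgeR, DESeq2, no filter, the replicate block and p21 OFF replicate 1 or 2 or p21 ON replicate 1 or 2 left out. The SLC1A5 call was lost when replicate 3 of p21 OFF or replicate 2 or 3 of p21 ON was omitted, and the SLC38A2 call when replicate 2 of p21 OFF or replicate 1 or 3 of p21 ON was omitted. The other 4 of the 8 tested transporters did not pass the test, so 50% were called, where the share of all genes tested was 23.2%.

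Of 13 genes for cytoplasmic tRNA synthetases and the tRNA exporter XPOT, 1 was called higher and 3 lower, or 30.8% beside 23.2% of all genes tested. AARS1, for alanine, rose by 0.23 (adjusted p = 0.00694), while LARS1 (leucine), NARS1 (asparagine) and SARS1 (serine) fell by 0.18, 0.16 and 0.17 (adjusted p = 0.0377, 0.0489 and 0.0495). AARS1 kept its call under all 17 alternatives. By edgeR and by DESeq2 on the recovered reads 1 of the 13 was called lower, where 12.4% and 10.7% of all genes tested were. The calls of LARS1, NARS1 and SARS1 were lost under 8, 11 and 12 alternatives. Among these for each were library size scaling, the replicate block, and p21 OFF replicate 2 or p21 ON replicate 1 or 3 left out. SARS1 lost its call without any 1 of the 6 libraries, LARS1 without any but p21 OFF replicate 1, and NARS1 also without p21 OFF replicate 3. The same 8 letters were found near the start of SLC1A4 and AARS1, which rose, and of NARS1, called lower. The NARS1 call was lost under 11 of 17 alternatives, and whether the letters bear on direction was not tested. The windows of SLC1A4, AARS1 and NARS1 are from the RefSeq promoter sequences (table of GRCh38.p14, placed on GRCh37 by sequence match). They are printed 5′ to 3′ on the strand of the gene with the 8 letters in capitals.
SLC1A4, chr2:65216515-65216544, plus strand, -7 from the start: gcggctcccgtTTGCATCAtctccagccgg
AARS1, chr16:70323578-70323607, minus strand, -187 from the start: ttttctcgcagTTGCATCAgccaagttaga
NARS1, chr18:55289036-55289065, minus strand, 14 from the start: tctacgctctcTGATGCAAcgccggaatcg

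These RefSeq promoters run from 250 bases before to 50 after the start. The letters were found there in 2 of the 10 ATF4 branch genes (ASNS and CHAC1). They were found in 2.79% of the 10277 tested genes with an entry, against 4.46% of all 27305 gene symbols with an entry. Of the 287 tested genes with a match in this narrow window 16.7% were called higher and 8.71% lower, and of the 9990 without one 10.2% and 13.7%. By list, matches were present in 7 of 11 tRNA synthetase genes with an entry, 4 of 8 transporters, 3 of 5 bZIP factors, 2 of 10 other ATF4 or CHOP targets, 1 of 15 genes of the upstream machinery, 0 of 5 amino acid enzymes, 0 of 16 genes of the ATF6 and XBP1 branches and 0 of 6 relatives of the 10 genes.

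Of 11 tested further targets of ATF4 or CHOP, 1 was called higher and 1 lower, or 18.2% where 23.2% of all genes tested were called. ADM2, a peptide hormone gene of the adrenomedullin family, rose most, from 57.8, 55.5 and 48.8 normalized counts in p21 OFF to 102, 81.6 and 105 in p21 ON libraries (log2 fold change 0.82, SE 0.15, adjusted p = 0.001), without overlap. MAP1LC3B, an autophagosome protein gene, fell by 0.21 (adjusted p = 0.0443), a call lost under 8 of 17 alternatives, among them DESeq2, library size scaling, the replicate block and p21 OFF replicate 1 or 2 or p21 ON replicate 1 or 3 left out. ADM2 kept its call under all 17. Among the further genes named as called, EIF2AK2, EIF2B2, CEBPB, SLC1A5, SLC7A11, AARS1, LARS1, ADM2, MAP1LC3B and HSP90B1 have exons of another gene on the opposite strand, whose reads could not be told apart if the counting ignored strand. GDF15 and FGF21, secreted factors often used to follow this response, were below the filter, with GDF15 at 4.66 normalized counts or less and FGF21 at 0 in every library.

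The sister branches of the unfolded protein response are run by ATF6 and XBP1. Of their 16 genes 0 were called higher and 2, or 12.5%, were called lower, where 10.5% and 12.7% of all genes tested were. The 2 were the chaperone gene HSP90B1 (log2 fold change -0.27, adjusted p = 0.0053) and the secreted factor gene MANF (-0.32, adjusted p = 0.0041). HSPA5, which encodes the main endoplasmic reticulum chaperone BiP, did not pass the test (log2 fold change -0.13, adjusted p = 0.12). The median of the 16 was -0.07. EDEM1 (0.15), for the disposal of misfolded glycoproteins, had the highest value of the list and did not pass the test. At an unadjusted p under 0.05 by limma, 1 of the 16 had a positive change and 5 a negative one. The share of all genes at that level was not counted, so no lean of the list is read from this. On the recovered reads edgeR and DESeq2 called 0 higher and 2 lower each. Of all genes tested they called 10.6% and 8.43% higher, and 12.4% and 10.7% lower. Under library size scaling 1 of the 16, EDEM1, was called higher, where 15.3% of all genes tested were. The calls of HSP90B1 and MANF were kept under all 17 alternatives.

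Relatives of the 10 genes that are not known as core ATF4 targets were examined as well. Of 9, 7 were tested, 0 were called higher and 1, TRIB2, was called lower (log2 fold change -0.19, adjusted p = 0.0409), which is 14.3% called beside 23.2% of all genes tested. TRIB1 (0.03), CHAC2 (-0.16), SESN1 (-0.09), SESN3 (0.35) and LRP8 (0.13) did not pass the test. At an unadjusted p under 0.05 by limma 1 of the 7 had a positive change. The share of all genes at that level was not counted, so nothing is read from this. By edgeR and DESeq2 0 of the 7 were called higher, where 10.6% and 8.43% of all genes tested were. The TRIB2 call was lost under 8 of 17 alternatives, among them DESeq2, library size scaling, the replicate block and p21 OFF replicate 2 or any p21 ON replicate left out. SESN3 was called higher with the replicate block and without p21 OFF replicate 3. PCK1 was at 0 in every library and DDIT4L at 0.95 normalized counts or less. Within 1000 bases of the start, 0 of the 9 relatives held the TGATGNAA letters, as did 2 of 16 genes of the ATF6 and XBP1 branches. The letters were also present in 9 of 10 amino acid enzymes, 9 of 10 tRNA synthetases with a located start, 7 of 9 transporters, 8 of 13 other targets, 4 of 6 bZIP factors and 6 of 17 genes of the upstream machinery, and most genes of those lists were not called higher.

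**Figure D5:**
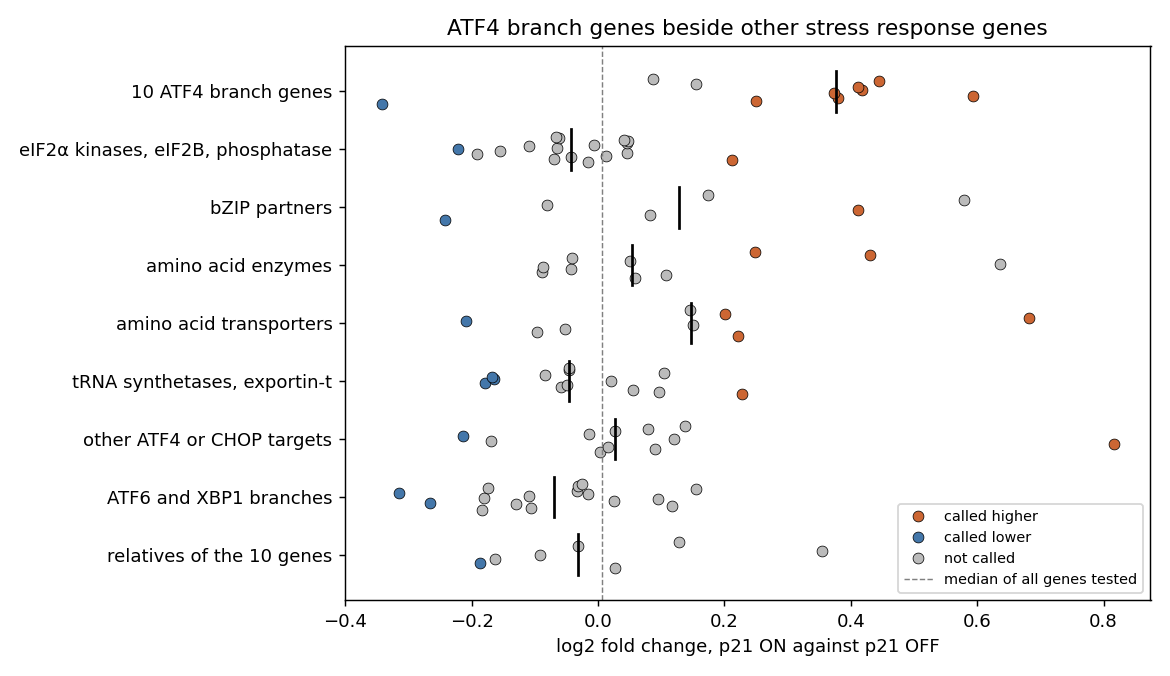
Log2 fold change of p21 ON against p21 OFF (horizontal axis) of each tested gene in 9 lists, 1 point per gene, coloured by the call at an adjusted p under 0.05, with a bar at the median of each list and a dashed line at the median of all genes tested. The 10 ATF4 branch genes have a median of 0.38, and the medians of the other lists lie between -0.07 and 0.15.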

How the data were processed

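RNA of 3 p21 OFF and 3 p21 ON SaOS-2 libraries was sequenced by the authors from stranded mRNA libraries as single-end reads in one lane. Per the study's methods and the submitters' processing notes, reads were mapped to hg19 with STAR, counted with HTSeq and normalized with DESeq2. Tool versions, the strand setting and the handling of multiply mapped reads are not given in the sources used here. The deposited signal is a DESeq2-normalized count per gene symbol and library. Every value was a whole multiple of 1 step per library (100% within 0.001 of a whole read), and the recovered totals on genes were 12795490, 20914151 and 21975045 reads for p21 OFF and 13440402, 12918390 and 16630552 for p21 ON libraries. Replicates differed by more than sampling noise (chi-square per gene 2.71 to 3.98, and 8.50 and 9.26 for p21 OFF replicate 1 against the others), so none was counted as a copy.

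The values were tested with limma 3.58.1 (lmFit, eBayes with a trend, R 4.3.3) on log2(normalized count + 1) with group as the only term. Tested were 13255 genes whose mean reached 10 normalized counts, and p-values were adjusted by Benjamini-Hochberg with a threshold of 0.05. On simulated counts 97.3% of log2 changes of 1 and 61.1% of log2 changes of 0.4 were called, with 5 unchanged genes called among 13236 tested. Alternatives were edgeR 4.0.16 and DESeq2 1.42.0 on the recovered reads, library size and TMM scaling, pseudocounts of 0.1 and 10, no filter, at least 10 reads in every library, a threshold of 0.01, the replicate number as a block, removal of a trend with exonic length, and each library left out. Gene positions were taken from the GRCh37 (hg19) version of GENCODE release 44, with 21288 rows matched, 2151 of them by an older symbol, and promoter sequences are from RefSeq.

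The members and lists were chosen with earlier results of these data known. Named were all 10 members, CDKN1A and the cell type markers, the genes called in each further list (up to 4 in each direction by adjusted p), the relatives of the members, and the 3 genes most like ATF4. Some genes set by this rule are not reported here. The kinases, NUPR1, PPP1R15A, ALDH1L2, the serine pathway genes, HSPA5, EDEM1, MARS1, GDF15 and FGF21 were named after their values were seen, and so was the motif search over 1000 bases chosen.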

Additional observations from a re-analysis of the deposited data

How the results depend on the processing

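Over 17 alternatives, 157 of the 170 fits of the 10 genes kept their direction and their side of the threshold. These fits are not independent: the threshold of 0.01 reuses the main fit. TMM scaling and a pseudocount of 0.1 gave nearly the same values as the main fit. DDIT3 lost its call under 10 of the 17. The number of the 10 called higher ran from 6 to 9, with 1 called lower each time. Under the same alternatives, 4.65% to 15.3% of all genes tested were called higher and 6.65% to 13.4% lower. The 9 came with a trend with exonic length removed, where 1389 of 12674 genes were called higher and 1678 lower. DDIT3 lost its call under DESeq2 (0.26), a pseudocount of 10 (0.24, adjusted p = 0.051), no filter (0.25, adjusted p = 0.0697) and a threshold of 0.01 (0.25), ran from 0.21 to 0.30 with 1 library left out, and rose to 0.40 (adjusted p = 0.00168) with a trend with exonic length removed. SESN2 (0.21, adjusted p = 0.0408) and DDIT4 (0.20, adjusted p = 0.0292) were called once a trend with exonic length was removed, and without p21 OFF replicate 2 DDIT4 turned to -0.0032. The cause was not tested in any of these. DDIT4 ran from -0.0032 to 0.13 and SESN2 from 0.13 to 0.18 with 1 library left out.

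With a threshold of 0.01, 616 genes of all tested were called higher and 882 lower. With 1 library left out these counts ran from 695 to 1486 and from 887 to 1660, the lowest without p21 ON replicate 1, and without p21 ON replicate 3 they were 739 and 1077. Scaling by library size gave 2034 higher and 1194 lower, against 1393 and 1681, and moved the median of all genes to 0.05. In the 6 pathway lists 5 genes were called higher at 0.01, where 4.65% of all genes tested were. In these lists 3 genes were called lower under DESeq2, 1 under library size scaling and 0 at 0.01. The shares of all genes called lower were 10.7%, 9.01% and 6.65%. With 1 library left out the lower calls of the lists ran from 0 to 5 and the higher calls from 6 to 9.

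Same-numbered libraries did not deviate together (correlations of -0.06, -0.02 and -0.05), which cannot show whether the replicate numbers mark pairs. With the replicate block DDIT3 lost its call (0.25, adjusted p = 0.0767), 2 genes of the pathway lists were called lower, and 1407 and 1513 of all genes were called higher and lower. Matching by older symbols changed nothing for the 10 genes, which were all found by their own symbol. Counts of 81 to 170 reads limit the precision for CHAC1.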
